A study of Mus musculus with 33 samples.

Results

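Heat-shock proteins and their cochaperones were followed as a group of 38 genes, chosen as a list of symbols and looked up in the first column of the count table. All 38 were found among its 24061 genes, and all 38 were among the 14607 genes with enough reads to be tested. They comprise 9 genes of the HSP70 and HSP110 families, 8 of HSP90 and its cochaperones, 4 small heat-shock proteins, 9 J proteins, 3 HSP70 cofactors, 3 mitochondrial chaperones (Hspa9, Hspd1 and Hspe1) and the transcription factors Hsf1 and Hsf2. The group is therefore mainly but not wholly cytosolic.

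Polyadenylated RNA from the mouse nucleus accumbens, a part of the ventral striatum, was sequenced as bulk tissue in 33 libraries. Germ-free (GF) mice, which carry no microbes, gave 5 morphine and 6 saline libraries. They were bred in isolators at the institution and matched in age to the others. Conventional mice, bought from a supplier at 7 to 9 weeks of age, drank antibiotics (Abx; 5 morphine and 6 saline libraries) or plain water (H2O; 5 morphine and 6 saline libraries). The antibiotic drink held neomycin at 2 mg/mL, bacitracin and vancomycin at 0.5 mg/mL each and the antifungal pimaricin at 1.2 µg/mL, and it began 2 weeks before the injections. Whole cages were given 1 drink. Every mouse was C57BL/6J, and morphine was given at 20 mg/kg per day for 7 days. Each library is taken as 1 mouse. Microbial status and breeding place cannot be told apart here, and the labels give no cage, batch or sequencing date.

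Heat-shock proteins are molecular chaperones that help other proteins fold and keep unfolded ones from clumping. HSP70 proteins bind exposed stretches of a client and release it in a cycle driven by ATP, which J proteins start and HSP110 proteins and other exchange factors reset. HSP90 takes over later clients, such as kinases and the glucocorticoid receptor, together with cochaperones that time its own ATP cycle, and small heat-shock proteins hold unfolded clients without ATP. Under proteotoxic stress, the transcription factor HSF1 binds repeats of the letters GAA and TTC, called heat-shock elements, in the promoters of many of these genes.

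In 10 of the 11 GF libraries, 4.87 to 8.13 M (megareads) were assigned to genes, against 9.36 to 15.3 M in the 22 conventional libraries. The remaining one, GF saline replicate 1, held 15.3 M. Of its reads 19.3% were given to no gene, against 22.1% to 35.4% in the other GF libraries. The counts of members that change without it, and the GF saline calls lost, are given with the results. Members gained without it are not all named. Markers of medium spiny neurons, the main cell type of this region, were present in every library. Among them, Drd1a stood at 92.2 to 340 CPM (read counts put on one library size by TMM factors) and Drd2 at 54.1 to 215 CPM. Markers of other tissue varied between libraries, and the ranges of the groups overlapped in part. For cortical glutamatergic neurons, 8 markers summed to 9.46 to 13.5 CPM in GF morphine and 9.48 to 370 CPM in GF saline libraries. Their sums were 160 to 1009 CPM in Abx morphine, 92.0 to 1549 in Abx saline, 9.19 to 1225 in H2O morphine and 13.4 to 704 CPM in H2O saline libraries. Of these 8, the defining gene Slc17a7 was at 0 in no library and Neurod2 was at 0 in 5 libraries, 4 of them GF. The 12 markers of hypothalamic and pituitary tissue summed to 34.8 to 85.8 CPM in GF morphine, 17.1 to 186 in GF saline, 16.5 to 56.0 in Abx morphine, 16.1 to 34.3 in Abx saline, 17.0 to 85.1 in H2O morphine and 15.4 to 58.3 CPM in H2O saline libraries. Of these 12, 9 had enough reads to be tested. Pmch was at 0 in 24 libraries, Prl in 20, Gh in 10, Hcrt in 8, Oxt in 7 and Avp in 2. In mean log2 CPM, centred over all libraries, GF saline replicate 1 had 1.71 for the cortical markers and -1.35 for the hypothalamic and pituitary ones. The other GF libraries had -3.01 to -0.318 and 0.278 to 2.97. The reason was not tested. In bulk tissue, fewer cells of a type and less RNA per cell cannot be told apart.

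The group spans a wide range of levels. Per kilobase of the longest annotated transcript and averaged over all libraries, Hsp90ab1, a constitutive HSP90, had the highest level at 737 CPM per kb. Hspa8, the constitutive HSP70, followed at 416, and Hsp90aa1, the inducible HSP90, at 213 CPM per kb. Stip1 stood at 99.5 and Hspa9 at 98.6 CPM per kb. At the low end, the stress-inducible HSP70 genes Hspa1a and Hspa1b stood at 1.68 and 1.71 CPM per kb, below Hspb6 at 2.65, Bag3 at 3.46 and Hspa1l at 3.61 CPM per kb. These levels are uncertain where genes have copies: Hspa1a and Hspa1b are nearly identical, and Hspe1, Hspd1, Ptges3, Dnaja1, Dnajb6 and Hspa9 have pseudogenes that RefSeq names. The annotated spans of Hspd1 and Hspe1 overlap at their starts, and that of Cryab overlaps Hspb2, while it is not known whether the counting used strand.

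Promoters were searched for heat-shock elements, because the group is named for the heat-shock response. The search took the 250 bases before each gene start in RefSeq (build GRCm38.p6). It used the letters GAANNTTC and TTCNNGAA for 2 units, where N is any base, and for 3 units the same letters followed, after another NN, by the unit (GAA or TTC) that keeps the alternation. Each form with 2 units is its own reverse complement and those with 3 are each other's, so the search covers both strands, and every match with 3 units also holds matches with 2. Of 31 members with a promoter entry, 3 (9.68%: Hspe1, Hspd1 and Dnajb6) held 3 units and 14 (45.2%) held 2. Of 10938 tested genes with an entry, 0.494% held 3 units and 12.1% held 2. Members without an entry were Hspa8, Hspa9, Hsp90aa1, Hsp90ab1, Cryab, Hsf1 and St13. Where a gene had several starts, a match before any of them counted, for members and for all genes alike. The start with the most matches was then chosen for display, from 3 entries for Dnaja1, 2 for Dnajb4 and 2 for Hsph1. The 6 promoters shown belong to members whose levels differed between groups in the results that follow, each read on the strand of its gene with the matched letters in capitals.
Hspe1, chr1:55087898-55088147, plus strand: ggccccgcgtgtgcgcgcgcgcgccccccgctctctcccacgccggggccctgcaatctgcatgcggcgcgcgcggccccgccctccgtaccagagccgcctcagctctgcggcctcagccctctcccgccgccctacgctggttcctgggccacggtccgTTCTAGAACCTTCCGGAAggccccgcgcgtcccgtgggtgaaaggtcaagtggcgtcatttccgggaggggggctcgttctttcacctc
Hspb1, chr5:135887669-135887918, plus strand: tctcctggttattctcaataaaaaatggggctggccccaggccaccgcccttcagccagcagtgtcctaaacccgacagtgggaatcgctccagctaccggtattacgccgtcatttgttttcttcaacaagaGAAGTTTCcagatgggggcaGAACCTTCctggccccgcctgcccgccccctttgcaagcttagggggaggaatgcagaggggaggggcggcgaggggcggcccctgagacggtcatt
Dnaja1, chr4:40722218-40722467, plus strand: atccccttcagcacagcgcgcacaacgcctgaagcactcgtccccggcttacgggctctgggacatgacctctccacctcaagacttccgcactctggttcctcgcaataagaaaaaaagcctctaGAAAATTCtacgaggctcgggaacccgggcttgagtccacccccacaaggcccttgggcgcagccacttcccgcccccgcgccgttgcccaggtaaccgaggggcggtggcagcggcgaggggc
Dnajb4, chr3:152193846-152194095, minus strand: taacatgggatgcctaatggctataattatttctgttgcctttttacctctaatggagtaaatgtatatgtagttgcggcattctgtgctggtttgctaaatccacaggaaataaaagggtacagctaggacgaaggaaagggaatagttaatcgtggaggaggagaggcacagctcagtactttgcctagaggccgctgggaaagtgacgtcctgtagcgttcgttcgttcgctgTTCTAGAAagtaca
Hspa1b, chr17:34959239-34959488, minus strand: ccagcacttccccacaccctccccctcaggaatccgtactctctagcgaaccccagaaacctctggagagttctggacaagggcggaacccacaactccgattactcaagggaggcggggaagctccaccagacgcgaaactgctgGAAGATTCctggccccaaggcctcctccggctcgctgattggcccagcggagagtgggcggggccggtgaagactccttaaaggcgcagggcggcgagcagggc
Hsph1, chr5:149636337-149636586, minus strand: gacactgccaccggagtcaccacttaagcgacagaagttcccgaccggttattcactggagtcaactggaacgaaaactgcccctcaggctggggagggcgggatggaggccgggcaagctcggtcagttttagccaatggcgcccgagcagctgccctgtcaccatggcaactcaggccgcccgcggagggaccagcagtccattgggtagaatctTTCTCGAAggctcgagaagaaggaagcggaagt
The Hspe1 match is read from the other strand in the promoter of Hspd1, its neighbour on chromosome 1. In Hspb1 a pair of separate matches lay 117 to 90 bases before the start, and in Dnajb4 the match lay 14 to 7 bases before it. Hspa1a carries the same match as Hspa1b. Chordc1, Hspa4l, Ptges3 and Ahsa1, described next, had no match in this window.

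The first question was how expression differed between GF mice and conventional mice. Many more heat-shock genes were higher than lower in GF mice, in saline and in morphine, and against both conventional groups. In GF saline over H2O saline, 21 of 38 members were higher and 3 lower at an adjusted p under 0.05 (edgeR, Benjamini-Hochberg over all 14607 genes), where 18.0% of all genes were higher and 14.9% lower. In GF saline over Abx saline, 26 were higher and 2 lower (all genes 14.6% and 12.8%). In GF morphine over H2O morphine, 13 were higher and 0 lower (3.20% and 2.66%), and in GF morphine over Abx morphine 24 were higher and 1 lower (14.7% and 13.3%). The median log2 fold change of the members was 0.22, 0.30, 0.24 and 0.37 in these 4 comparisons, while that of all genes was 0.0098, 0.00010, -0.0070 and 0.0054.

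Across these 4 comparisons, which share the GF libraries within an injection, 10 members were higher in all 4, against 1.47% of all genes. They were Chordc1, Hspb1, Hspa4l, Dnaja1, Dnajb4, Hspa8, Ptges3, Hspe1, Hsp90aa1 and Ahsa1. Another 10 were higher in 3 comparisons, 5 in 2 and 4 in 1, and 5 members (Hspa9, Hspa14, Hspb6, Dnajb5 and Dnajb6) were called in none. Lower in at least 1 comparison were 5 members, Hspa1l, Hspa2, Stub1, Cdc37 and Dnajc7, and no member was lower in all 4, where 1.25% of all genes were. The number higher in all 4 was also counted under other settings, a recount chosen after the first result was seen. Without GF saline replicate 1 it was 10 as well, with Hspb8 in place of Ahsa1 (2.19% of all genes), and without GF morphine replicate 3 it was 6 (0.713%). With tissue markers as covariates it was 6 (0.527% of all genes): Hspa4l, Hsp90aa1, Hspe1, Dnajb4, Ahsa1 and Ptges3 left the list, and Dnaja4 and Dnajb5 joined it. With a correction for GC content and length it was 11 (1.16%), 7 of them from the first 10, and with fits of the compared groups alone it was 5 (0.719%), 4 of them from the first 10. Chordc1, Dnaja1 and Hspa8 stayed on the list under every alternative run and with any 1 library left out. Of the 10 genes that were higher in all 4, 8 had a promoter entry and 4 of these a heat-shock element of 2 units (Hspb1, Dnaja1, Dnajb4 and Hspe1). Of the other 28 members, 23 had an entry and 10 a match.

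**Figure D1:**
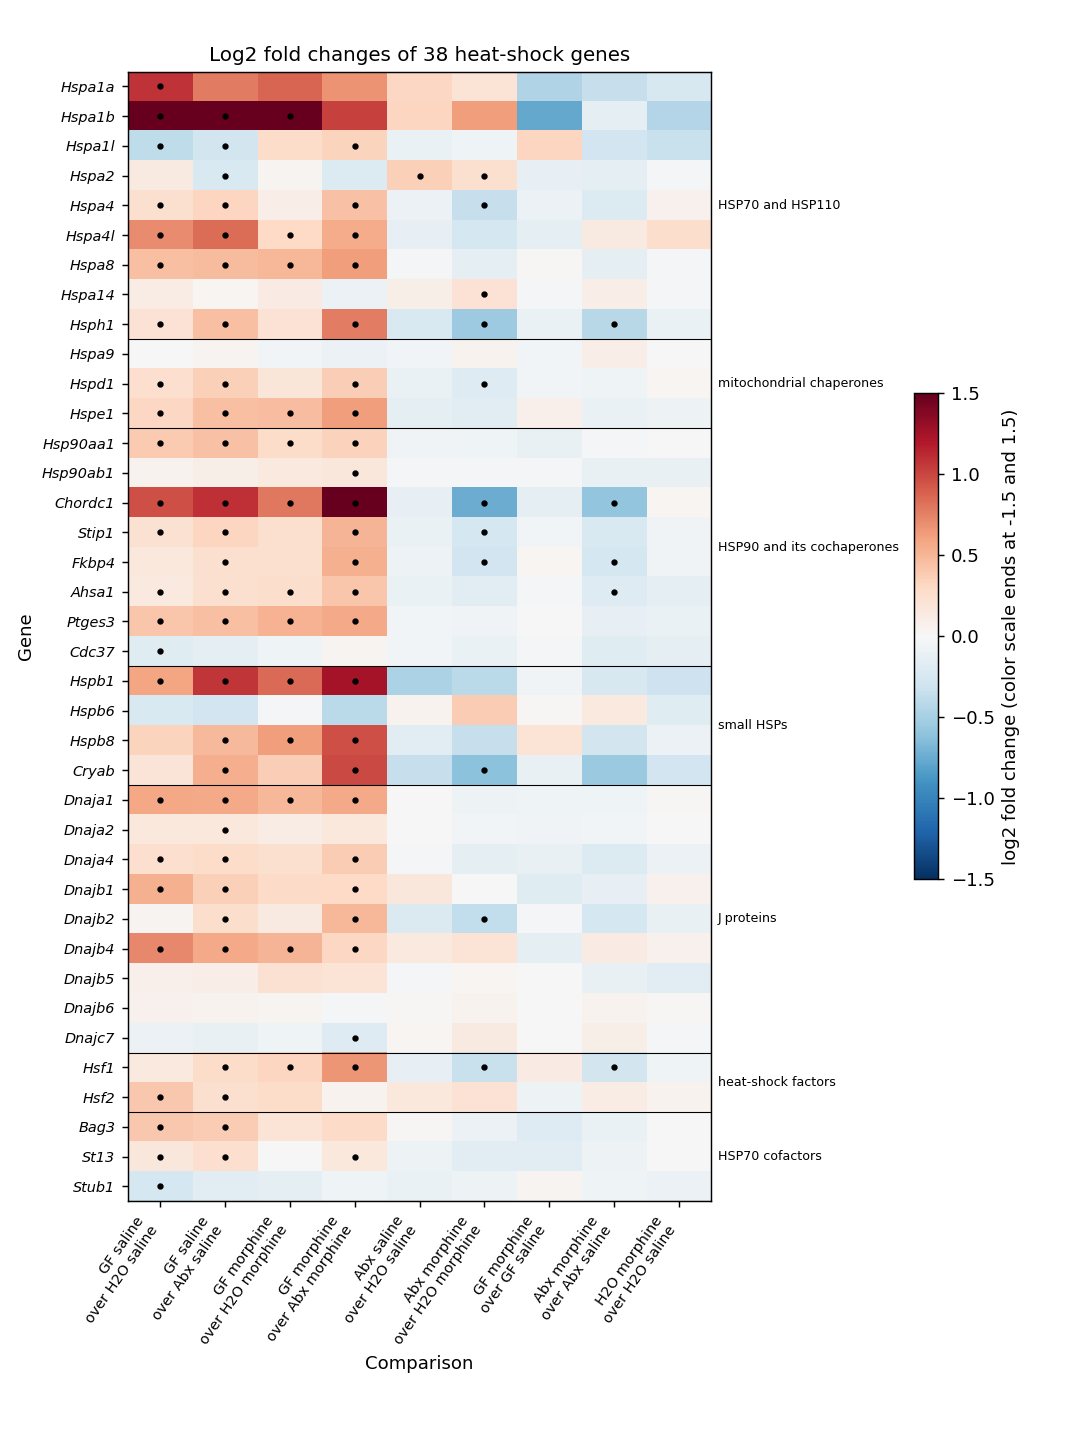
Log2 fold changes of the 38 genes (vertical axis, by class) in 9 comparisons (horizontal axis); red is higher and blue lower in the first-named group, black dots mark adjusted p under 0.05, and the color scale ends at -1.5 and 1.5, which Hspa1b and Chordc1 exceed. The 4 GF columns at the left are mostly red, with 21, 26, 13 and 24 genes called higher, and the antibiotic and morphine columns at the right are mostly pale or blue.

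The separation is also visible library by library. In saline mice, every GF library stood above every one of the 12 conventional libraries for 6 members (Hspa4, Hspa4l, Hspa8, Dnaja1, Dnajb4 and Chordc1), against 1.47% of all genes. In morphine mice, all 5 GF libraries stood above all 10 conventional ones for 12 members, against 1.66% of all genes. These were Hspa1l, Hspa8, Hsp90aa1, Hspe1, Hspb1, Dnaja1, Chordc1, Hsf1, Stip1, Fkbp4, Ahsa1 and Ptges3. No member had all its GF libraries below the conventional ones in saline (all genes 1.60%) or in morphine (1.41%). Leaving out a library can only keep or raise such a count, so a recount of this kind could not weaken it. The saline count was 9 without GF saline replicate 1, and the morphine count was 17 without GF morphine replicate 6. The share of all genes was not recounted there.

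Several technical measures moved with the GF comparisons. Besides depth, the log2 fold change of all genes went with GC content across 14475 genes (Spearman's rho -0.493 against H2O and -0.500 against Abx in saline, -0.278 and -0.194 in morphine). With transcript length, rho was 0.335 against H2O and 0.263 against Abx in saline, and -0.100 and -0.0839 in morphine. The median GC content was 50.6% for the members and 49.9% for all genes. Of the 10 genes higher in all 4 comparisons, Hspb1 had 61.7%, and the others had 35.7% (Chordc1) to 47.2% (Ahsa1). Over all alternatives, Chordc1 spanned 0.47 to 1.12 and Hspa4l 0.25 to 0.77 in GF saline over H2O saline. There, Dnaja1 spanned 0.26 to 0.68 and Dnajb4 0.46 to 0.77. After a correction for GC content and length, 21 members were higher and 2 lower in GF saline over H2O saline, against 9.60% and 8.83% of all genes, and 18 of these 23 were also called without it. In GF saline over Abx saline, 24 were higher and 0 lower, against 7.80% and 7.94% of all genes, and 23 of the 24 were also called without it. With upper-quartile scaling factors, 23 were higher and 5 lower in GF saline over Abx saline, against 11.8% and 16.9% of all genes. Without GF saline replicate 1, 20 were higher and 3 lower against H2O saline (20.2% and 18.2% of all genes), and 26 higher and 4 lower against Abx saline (17.2% and 16.1%). In that fit, 14 were higher and 0 lower in GF morphine over H2O morphine (4.32% and 3.33%). Over Abx morphine, 24 were higher and 2 lower in GF morphine (15.2% and 14.4%). In Abx morphine over Abx saline, 0 were higher and 4 lower (2.60% and 3.20%).

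The next fits had as covariates the mean log2 CPM of the 8 cortical markers and that of the 9 tested hypothalamic and pituitary markers. With them, 17 members were higher and 2 lower in GF saline over H2O saline, against 13.0% and 10.3% of all genes. In GF saline over Abx saline 17 were higher and 1 lower (9.64% and 8.37%), in GF morphine over H2O morphine 9 and 0 (1.07% and 0.808%), and in GF morphine over Abx morphine 19 and 1 (6.47% and 6.24%). These covariates ended the calls of Ahsa1, Bag3, Cdc37, Hspa1a, Hspe1, Ptges3 and Stip1 in GF saline over H2O saline. Against Abx saline they ended those of Bag3, Cryab, Dnaja2, Dnajb2, Fkbp4, Hsf1, Hsf2, Hspa1l, Hspa2, Hspb8, Ptges3 and Stip1. In morphine, the calls of Hsf1, Hsp90aa1, Hspa1b, Hspa4l, Hspb8 and Ptges3 against H2O and of Dnajb1, Dnajb4, Hsp90ab1, Hspa1l, Hspb8 and St13 against Abx ended. The correction for GC content and length ended the calls of Ahsa1, Hsf2, Hspa4, Hsph1, St13 and Stub1 against H2O saline, of Dnaja2, Hsf2, Hspa1l, Hspa2 and St13 against Abx saline, of Hsp90aa1 and Hspa4l against H2O morphine and of St13 against Abx morphine.

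Markers of other cell types moved with some of these comparisons. All 7 microglia markers were higher in GF morphine over Abx morphine (median log2 fold change 0.54), with sums of 409 to 499 CPM in GF morphine and 309 to 368 CPM in Abx morphine libraries. In GF saline over Abx saline 3 of 7 were higher, at 391 to 532 CPM in GF saline and 370 to 444 CPM in Abx saline libraries. Of 7 endothelial markers, 5 were lower in GF saline over H2O saline (median -0.41), at 129 to 217 CPM in GF saline and 220 to 245 CPM in H2O saline libraries. Of 6 markers of mural cells, which wrap small vessels, 3 were lower there (median -0.37), at 104 to 154 CPM in GF saline and 186 to 212 CPM in H2O saline libraries. None of these markers was at 0 in any library, and the part of these cells in the members' differences was not tested.

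Within the HSP70 family, the constitutive gene Hspa8 had 1723, 1604, 1565, 1653 and 1686 CPM in GF morphine libraries, against 1160, 1029, 1020, 1059 and 1060 CPM in Abx morphine and 1257, 1073, 1240, 1087 and 1169 CPM in H2O morphine libraries. Saline Hspa8 levels were 1425 to 1832 (median 1644) CPM in GF saline, against 1089 to 1280 (median 1159) CPM in Abx saline and 1106 to 1302 (median 1175) CPM in H2O saline libraries. In both injections every GF library stood above every conventional one. The log2 fold change was 0.50 ± 0.07, adjusted p = 0.000122 in GF morphine over H2O morphine and 0.45 ± 0.06, adjusted p = 6.35e-06 in GF saline over H2O saline. It was 0.63 ± 0.07, adjusted p = 8.3e-08 against Abx morphine and 0.48 ± 0.06, adjusted p = 6.09e-06 against Abx saline.

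The stress-inducible pair Hspa1a and Hspa1b was low in all groups and had its highest values in 2 GF saline libraries, replicates 3 and 5. Hspa1b had 6.82, 5.14, 8.54, 5.90 and 4.60 CPM in GF morphine libraries, against 3.71, 2.01, 2.37, 4.88 and 2.38 CPM in Abx morphine and 2.42, 0.970, 3.62, 1.51 and 1.33 CPM in H2O morphine libraries. Saline Hspa1b levels were 4.36 to 22.6 (median 6.23) CPM in GF saline, against 1.56 to 7.56 (median 2.42) CPM in Abx saline and 0.900 to 5.29 (median 2.42) CPM in H2O saline libraries. It was higher in GF saline over H2O saline (log2 fold change 1.97 ± 0.43, adjusted p = 0.000961), in GF saline over Abx saline (1.66 ± 0.43, adjusted p = 0.00458) and in GF morphine over H2O morphine (1.65 ± 0.50, adjusted p = 0.0471), while GF morphine over Abx morphine gave 1.02 ± 0.48, adjusted p = 0.108. The call in GF morphine over H2O morphine was lost when any of 8 libraries was left out, namely GF morphine replicates 1, 2, 3 and 5 and H2O morphine replicates 2, 3, 5 and 6. Hspa1a had 5.43, 3.52, 9.10, 4.96 and 6.31 CPM in GF morphine libraries, against 3.44, 2.63, 3.09, 5.20 and 3.96 CPM in Abx morphine and 4.00, 2.69, 4.15, 2.04 and 3.15 CPM in H2O morphine libraries. Saline Hspa1a levels were 3.99 to 14.6 (median 6.35) CPM in GF saline, against 3.44 to 7.78 (median 4.13) CPM in Abx saline and 2.24 to 7.34 (median 2.81) CPM in H2O saline libraries, and the groups overlapped in both injections. With edgeR, Hspa1a was called in GF saline over H2O saline (1.09 ± 0.32, adjusted p = 0.00898), though not with tissue markers as covariates, and in no other GF comparison. Its value in GF saline over Abx saline was 0.78 ± 0.31, adjusted p = 0.0596, and 5 alternatives called it there, DESeq2 (adjusted p = 0.0399) and limma voom (adjusted p = 0.0492) among them. Since reads of the pair can be split or dropped by the counting, neither value can be assigned to 1 gene with certainty.

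The HSP110 genes, whose proteins reset HSP70 by releasing its ADP, were higher in GF mice in most comparisons. Hspa4l had 137, 164, 151, 124 and 146 CPM in GF morphine libraries, against 99.3, 90.3, 104, 92.7 and 102 CPM in Abx morphine and 124, 104, 126, 103 and 127 CPM in H2O morphine libraries. Saline Hspa4l levels were 135 to 200 (median 157) CPM in GF saline, against 80.2 to 104 (median 88.7) CPM in Abx saline and 85.9 to 109 (median 96.5) CPM in H2O saline libraries, with no overlap between GF and conventional libraries. It was higher in all 4 comparisons, by 0.71 ± 0.08, adjusted p = 9.63e-07 in GF saline over H2O saline and by 0.30 ± 0.09, adjusted p = 0.0469 in GF morphine over H2O morphine. Against Abx mice the log2 fold change of Hspa4l was 0.84 ± 0.08, adjusted p = 5.94e-08 in saline and 0.56 ± 0.09, adjusted p = 4.99e-05 in morphine. The morphine call against H2O was lost without any of GF morphine replicates 2, 3 and 6 or H2O morphine replicates 3 and 5.

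Hspa4, a close relative, had 296, 313, 308, 259 and 270 CPM in GF morphine libraries, against 211, 221, 203, 206 and 222 CPM in Abx morphine and 273, 256, 297, 249 and 275 CPM in H2O morphine libraries. Saline Hspa4 levels were 276 to 352 (median 303) CPM in GF saline, against 219 to 276 (median 237) CPM in Abx saline and 240 to 270 (median 262) CPM in H2O saline libraries, and again the GF saline libraries stood above all conventional ones. Its log2 fold change was 0.24 ± 0.06, adjusted p = 0.00392 in GF saline over H2O saline, 0.33 ± 0.06, adjusted p = 0.00042 in GF saline over Abx saline and 0.44 ± 0.07, adjusted p = 2.39e-05 in GF morphine over Abx morphine. In GF morphine over H2O morphine it was 0.10 ± 0.07, adjusted p = 0.383. Hsph1 had 554, 463, 467, 381 and 439 CPM in GF morphine libraries, against 249, 313, 250, 269 and 274 CPM in Abx morphine and 381, 381, 392, 421 and 399 CPM in H2O morphine libraries. Saline Hsph1 levels were 399 to 565 (median 498) CPM in GF saline, against 310 to 402 (median 365) CPM in Abx saline and 396 to 477 (median 418) CPM in H2O saline libraries. The largest of its GF differences was against Abx morphine (0.77 ± 0.09, adjusted p = 5.51e-07), where the libraries did not overlap, followed by Abx saline (0.45 ± 0.08, adjusted p = 0.000306). Against H2O saline it was 0.22 ± 0.08, adjusted p = 0.0427, a call lost in 8 of 12 fits with 1 saline library left out (GF replicates 1, 3 and 4 and H2O replicates 3, 4, 5, 6 and 8), and against H2O morphine 0.22 ± 0.09, adjusted p = 0.137.

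The remaining HSP70 relatives differed from this picture. Hspa1l, whose mouse gene neighbours Hspa1a and which is known from testis, had 10.4, 9.98, 9.10, 10.4 and 9.21 CPM in GF morphine libraries, against 8.68, 7.21, 7.36, 8.22 and 7.63 CPM in Abx morphine and 8.32, 8.88, 7.90, 7.01 and 8.61 CPM in H2O morphine libraries. Saline Hspa1l levels were 6.17 to 9.03 (median 8.08) CPM in GF saline, against 8.91 to 10.1 (median 9.54) CPM in Abx saline and 8.94 to 11.6 (median 10.4) CPM in H2O saline libraries. In saline it was lower in GF than in H2O mice (-0.38 ± 0.09, adjusted p = 0.00163) and than in Abx saline mice (-0.28 ± 0.09, adjusted p = 0.02), yet higher in GF morphine than in Abx morphine mice (0.33 ± 0.10, adjusted p = 0.011). GF morphine over H2O morphine gave 0.27 ± 0.10, adjusted p = 0.0858, although all 5 GF libraries stood above the 10 conventional ones. Each of these Hspa1l calls was lost in libraries thinned to the smallest one. The Abx saline call was also lost in a fit of the compared groups alone and without GF saline replicate 6. Hspa2, a further HSP70 gene best known from male germ cells, had 37.8, 36.4, 35.7, 30.9 and 39.1 CPM in GF morphine libraries, against 41.1, 43.2, 40.7, 43.7 and 38.3 CPM in Abx morphine and 29.6, 35.5, 38.1, 38 and 33.9 CPM in H2O morphine libraries. Saline Hspa2 levels were 35.4 to 43.6 (median 39.2) CPM in GF saline, against 42.1 to 54.6 (median 43.3) CPM in Abx saline and 31.3 to 37.4 (median 36.6) CPM in H2O saline libraries. Hspa2 was lower in GF saline than in Abx saline mice (-0.22 ± 0.07, adjusted p = 0.02) and not called against H2O (0.13 ± 0.07, adjusted p = 0.155 in saline and 0.04 ± 0.08, adjusted p = 0.824 in morphine); without GF saline replicate 3 or Abx saline replicate 5 it was not called. Hspa14, a distant HSP70 of the ribosome, had 46.3, 45.3, 45.2, 40.3 and 39.1 CPM in GF morphine libraries, against 45.5, 41.8, 46.8, 49.5 and 47.2 CPM in Abx morphine and 41.4, 37.6, 36.1, 42.1 and 41.4 CPM in H2O morphine libraries. Saline Hspa14 levels were 36.6 to 48.0 (median 44.5) CPM in GF saline, against 39.1 to 47.1 (median 43.1) CPM in Abx saline and 38.7 to 41.5 (median 40.9) CPM in H2O saline libraries, and no GF comparison passed the test (log2 fold changes -0.09 to 0.13).

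Of HSP90 and its cochaperones, Chordc1, which binds HSP90 through its CHORD domains, differed most. Chordc1 had 60.0, 52.2, 67.0, 58.5 and 49.6 CPM in GF morphine libraries, against 17.7, 22.0, 16.5, 19.0 and 23.5 CPM in Abx morphine and 35.2, 26.4, 35.1, 31.4 and 37.9 CPM in H2O morphine libraries. Saline Chordc1 levels were 44.1 to 86.9 (median 63.3) CPM in GF saline, against 24.9 to 34.3 (median 30.3) CPM in Abx saline and 26.0 to 42.6 (median 31.8) CPM in H2O saline libraries. In both injections no GF library overlapped with a conventional one. The log2 fold change was 1.54 ± 0.15, adjusted p = 7.13e-09 against Abx morphine and 0.79 ± 0.14, adjusted p = 0.00125 against H2O morphine. It was 1.09 ± 0.13, adjusted p = 1.63e-06 against Abx saline and 0.96 ± 0.13, adjusted p = 5.75e-06 against H2O saline, and all 4 calls held under each alternative run. Ptges3, which codes for the HSP90 cochaperone p23, had 65.8, 80, 95.6, 116 and 71.8 CPM in GF morphine libraries, against 57.2, 58.1, 57.8, 57.5 and 57.5 CPM in Abx morphine and 65.0, 53.5, 61.9, 57.5 and 61.8 CPM in H2O morphine libraries. Saline Ptges3 levels were 61.9 to 99.3 (median 89.4) CPM in GF saline, against 55.9 to 71.5 (median 61.7) CPM in Abx saline and 62.8 to 65.7 (median 64.5) CPM in H2O saline libraries; GF saline replicate 1 had the lowest GF value and overlapped with the conventional libraries. Its log2 fold change was 0.52 ± 0.11, adjusted p = 0.00595 in GF morphine over H2O morphine and 0.41 ± 0.10, adjusted p = 0.00239 in GF saline over H2O saline. Against Abx mice it was 0.57 ± 0.11, adjusted p = 0.000288 in morphine and 0.45 ± 0.10, adjusted p = 0.0015 in saline. With tissue markers as covariates, all of these calls but that against Abx morphine were lost.

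The constitutive HSP90 gene Hsp90ab1 was called in 1 GF comparison and its inducible partner Hsp90aa1 in all 4. Hsp90ab1 had 2167, 1916, 1825, 1737 and 2036 CPM in GF morphine libraries, against 1783, 1777, 1673, 1713 and 1630 CPM in Abx morphine and 1872, 1718, 1793, 1685 and 1680 CPM in H2O morphine libraries. Saline Hsp90ab1 levels were 1736 to 2222 (median 1966) CPM in GF saline, against 1729 to 1996 (median 1851) CPM in Abx saline and 1786 to 2001 (median 1896) CPM in H2O saline libraries, and the groups overlapped. Among GF comparisons, only the one with Abx morphine was called for Hsp90ab1 (0.17 ± 0.06, adjusted p = 0.035), and it was lost without any of GF morphine replicates 1 and 6 and Abx morphine replicates 3, 4 and 5; the others gave log2 fold changes of 0.06 to 0.15. Hsp90aa1 averaged 787 ± 27.2 CPM in GF morphine (SD, n = 5) and 650 ± 71.6 CPM in H2O morphine libraries (n = 5). It was higher in all 4 comparisons, by 0.28 to 0.44 on the log2 scale, and the call against H2O morphine was lost without any of GF replicates 2, 3, 5 and 6 or H2O replicates 3 and 5. That call was also lost without a filter, in a fit of the compared groups alone and with replicate number as a block. The GC and length correction and tissue markers as covariates ended it too. The difference in response between Hsp90aa1 and Hsp90ab1 was not tested.

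Ahsa1, an activator of the HSP90 ATPase, had 141, 130, 127, 146 and 133 CPM in GF morphine libraries, against 100, 106, 103, 100 and 96.7 CPM in Abx morphine and 115, 113, 116, 106 and 113 CPM in H2O morphine libraries. Saline Ahsa1 levels were 122 to 163 (median 136) CPM in GF saline, against 106 to 128 (median 115) CPM in Abx saline and 118 to 132 (median 124) CPM in H2O saline libraries. It was higher in all 4 comparisons, by 0.42 ± 0.06, adjusted p = 1.02e-05 against Abx morphine and 0.27 ± 0.06, adjusted p = 0.0101 against H2O morphine, where all GF libraries lay above the conventional ones. In saline the log2 fold change was 0.24 ± 0.06, adjusted p = 0.00195 against Abx and 0.14 ± 0.06, adjusted p = 0.0498 against H2O. The call against H2O saline stood at the threshold and was lost without any of 8 of the 12 saline libraries (GF replicates 1, 3 and 5 and H2O replicates 3, 4, 5, 6 and 8). Of 11 other settings on all libraries or all compared ones, only 2 kept it, DESeq2 and the replicate block.

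Stip1, also called HOP, passes clients between HSP70 and HSP90. Stip1 had 249, 232, 235, 243 and 230 CPM in GF morphine libraries, against 167, 161, 173, 166 and 168 CPM in Abx morphine and 217, 209, 192, 179 and 209 CPM in H2O morphine libraries. Saline Stip1 levels were 201 to 311 (median 235) CPM in GF saline, against 177 to 216 (median 192) CPM in Abx saline and 187 to 246 (median 199) CPM in H2O saline libraries. It was higher in GF saline than in H2O saline (0.23 ± 0.08, adjusted p = 0.0237) and Abx saline mice (0.32 ± 0.08, adjusted p = 0.00277) and higher than in Abx morphine mice (0.51 ± 0.08, adjusted p = 5.14e-05). The call against H2O saline was lost without any of GF replicates 3 and 5 or H2O replicates 3, 4 and 6. Fkbp4, an immunophilin that joins steroid receptors to HSP90, had 165, 150, 175, 173 and 164 CPM in GF morphine libraries, against 108, 113, 112, 119 and 121 CPM in Abx morphine and 150, 135, 141, 126 and 145 CPM in H2O morphine libraries. Saline Fkbp4 levels were 146 to 214 (median 154) CPM in GF saline, against 131 to 147 (median 138) CPM in Abx saline and 134 to 168 (median 137) CPM in H2O saline libraries. Fkbp4 was higher in GF than in Abx mice, in morphine (0.53 ± 0.08, adjusted p = 1.76e-05) and in saline (0.24 ± 0.07, adjusted p = 0.0155). Without GF saline replicate 5, which had the highest value, the saline call was lost. For Stip1 and Fkbp4, GF morphine libraries lay above all H2O morphine libraries without passing the test (0.24 ± 0.08, adjusted p = 0.0799 and 0.25 ± 0.08, adjusted p = 0.0618).

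Cdc37, which brings kinases to HSP90, was not called higher in any GF comparison and was lower in 1. Cdc37 had 136, 126, 117, 142 and 134 CPM in GF morphine libraries, against 132, 134, 119, 132 and 121 CPM in Abx morphine and 141, 140, 140, 130 and 133 CPM in H2O morphine libraries. Saline Cdc37 levels were 111 to 151 (median 132) CPM in GF saline, against 134 to 166 (median 142) CPM in Abx saline and 145 to 155 (median 150) CPM in H2O saline libraries, and the groups overlapped. In saline it was lower in GF than in H2O mice (-0.18 ± 0.06, adjusted p = 0.0229), a call lost without GF saline replicate 3 or 6, and the other 3 GF comparisons were not called (log2 fold changes -0.14 to 0.04).

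**Figure D2:**
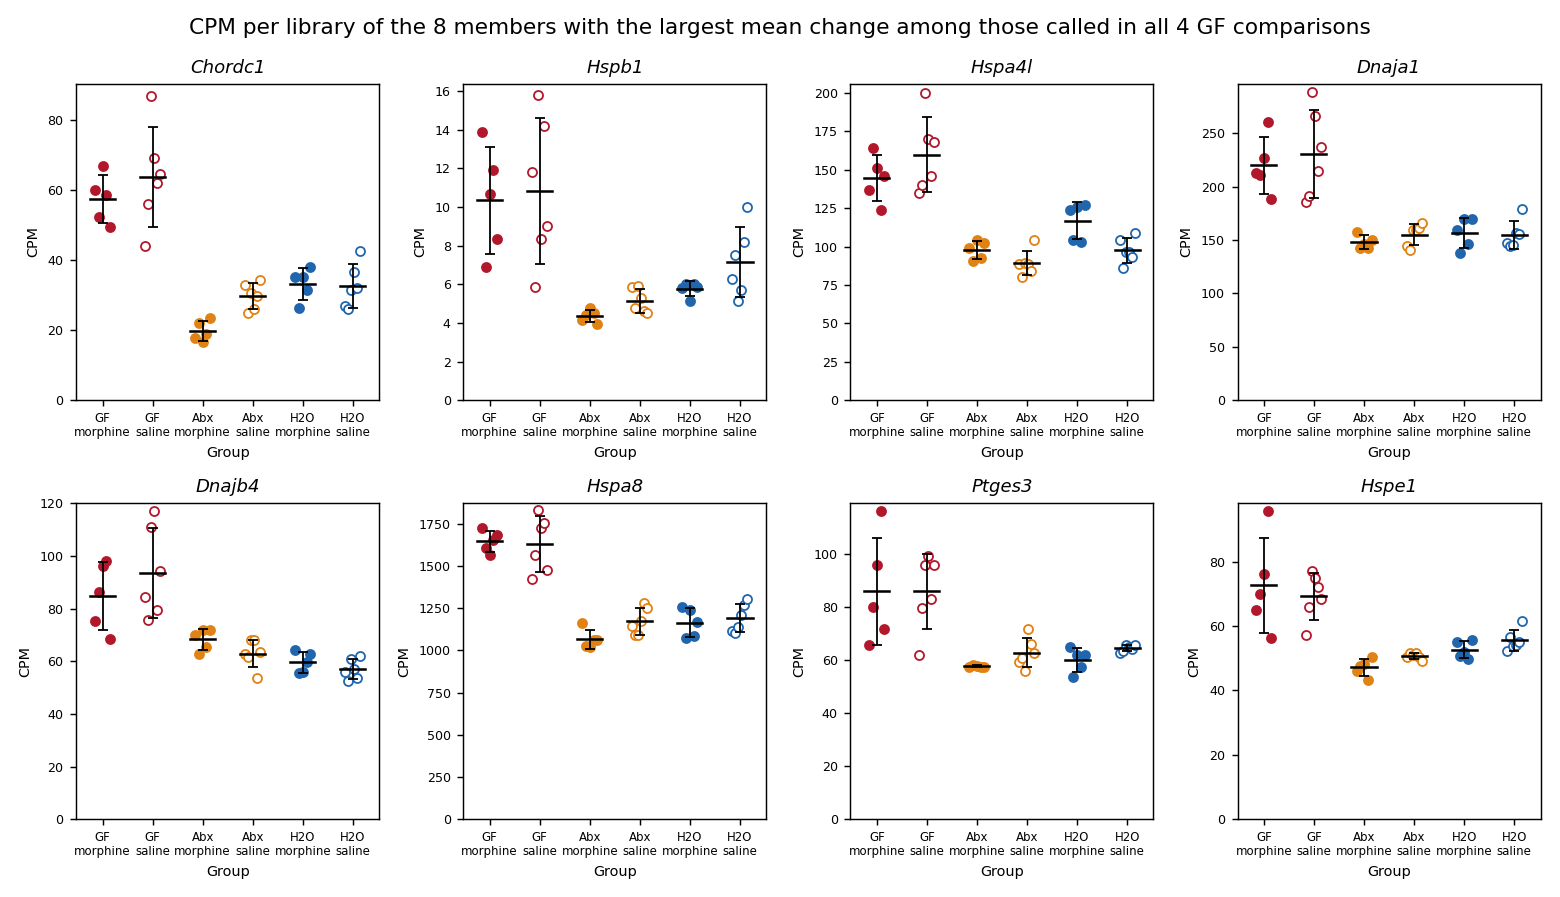
CPM per library (vertical axes, starting at 0) of 8 of the 10 genes called higher in all 4 GF comparisons, those with the largest mean log2 fold change; each point is 1 library (filled for morphine, open for saline), and the line with bars is the mean ± SD of its group on the horizontal axis. For Chordc1, Hspa8 and Dnaja1, all GF points lie above the conventional points of the same injection.

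Small heat-shock proteins, which bind unfolded clients without ATP, included the second largest mean difference of the 10 genes called throughout. Hspb1, also called HSP25, had 13.9, 6.90, 10.7, 11.9 and 8.36 CPM in GF morphine libraries, against 4.16, 4.42, 4.75, 4.50 and 3.96 CPM in Abx morphine and 5.79, 6.04, 5.13, 6.03 and 5.88 CPM in H2O morphine libraries. Saline Hspb1 levels were 5.87 to 15.8 (median 10.4) CPM in GF saline, against 4.52 to 5.89 (median 5.02) CPM in Abx saline and 5.11 to 9.99 (median 6.91) CPM in H2O saline libraries. All GF morphine libraries lay above the conventional ones, while in saline the groups overlapped. The log2 fold change was 1.25 ± 0.20, adjusted p = 4.37e-05 against Abx morphine, 0.85 ± 0.20, adjusted p = 0.0113 against H2O morphine, 1.07 ± 0.18, adjusted p = 0.000132 against Abx saline and 0.59 ± 0.18, adjusted p = 0.0109 against H2O saline. The call against H2O saline was lost without GF saline replicate 3.

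Cryab, or alpha-B crystallin, is abundant in oligodendrocytes and astrocytes. Cryab had 82.9, 95.1, 107, 152 and 112 CPM in GF morphine libraries, against 49.3, 66.3, 47.9, 52.6 and 60.5 CPM in Abx morphine and 89.8, 74.8, 96.3, 82.3 and 82.2 CPM in H2O morphine libraries. Saline Cryab levels were 70.6 to 211 (median 103) CPM in GF saline, against 65.6 to 96.4 (median 83.2) CPM in Abx saline and 101 to 107 (median 103) CPM in H2O saline libraries. It was higher in GF than in Abx mice (0.99 ± 0.19, adjusted p = 0.000244 in morphine, 0.54 ± 0.17, adjusted p = 0.0165 in saline) and not called against H2O (0.37 ± 0.18, adjusted p = 0.216 in morphine and 0.19 ± 0.17, adjusted p = 0.389 in saline). The saline call was lost without GF saline replicate 3 or 5. Markers of oligodendrocytes summed to 4686 to 7010 CPM in GF morphine and 5010 to 5740 CPM in Abx morphine libraries, and 1 of 7 was called higher; in saline, 2 of 7 were. Their part in the Cryab result was not tested. Hspb8 was higher in 3 comparisons (log2 fold changes 0.49, 0.63 and 0.97), and Hspb6 was called in none (-0.40 to -0.03). All 3 Hspb8 calls were lost with tissue markers as covariates; that against H2O morphine was also lost without any of GF replicates 3 and 5 or H2O replicates 4 and 5, and that against Abx saline without GF replicate 3 or 5 or Abx replicate 5.

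J proteins deliver clients to HSP70 and start its ATP cycle, and 5 of the 9 were higher in at least 2 GF comparisons. Dnaja1 had 213, 211, 227, 261 and 188 CPM in GF morphine libraries, against 158, 143, 146, 143 and 150 CPM in Abx morphine and 159, 138, 170, 146 and 170 CPM in H2O morphine libraries. Saline Dnaja1 levels were 186 to 289 (median 226) CPM in GF saline, against 141 to 166 (median 159) CPM in Abx saline and 144 to 179 (median 152) CPM in H2O saline libraries, and in both injections the GF libraries stood apart from all conventional ones. Its log2 fold change was 0.58 ± 0.09, adjusted p = 2.15e-05 against H2O saline and 0.49 ± 0.10, adjusted p = 0.00287 against H2O morphine. Against Abx mice it was 0.57 ± 0.09, adjusted p = 3.74e-05 in saline and 0.57 ± 0.10, adjusted p = 6.14e-05 in morphine. Dnajb4 had 75.5, 86.4, 96.2, 98.2 and 68.6 CPM in GF morphine libraries, against 70.0, 63.0, 71.8, 65.4 and 72.0 CPM in Abx morphine and 64.4, 55.5, 55.9, 59.6 and 62.7 CPM in H2O morphine libraries. Saline Dnajb4 levels were 75.7 to 117 (median 89.4) CPM in GF saline, against 53.8 to 68.2 (median 63.2) CPM in Abx saline and 52.6 to 62.0 (median 56.6) CPM in H2O saline libraries, with no overlap, while in morphine GF replicate 6 overlapped with the Abx libraries. Dnajb4 was higher by 0.72 ± 0.09, adjusted p = 2.44e-06 against H2O saline, by 0.51 ± 0.10, adjusted p = 0.00287 against H2O morphine, by 0.57 ± 0.09, adjusted p = 5.62e-05 against Abx saline and by 0.31 ± 0.10, adjusted p = 0.0183 against Abx morphine. The last of these was lost without GF morphine replicate 3 or 5.

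Dnajb2, a J protein abundant in neurons, had 110, 113, 120, 122 and 120 CPM in GF morphine libraries, against 80.2, 80.4, 82.7, 80.8 and 89.4 CPM in Abx morphine and 121, 101, 103, 102 and 108 CPM in H2O morphine libraries. Saline Dnajb2 levels were 96.3 to 160 (median 116) CPM in GF saline, against 89.1 to 105 (median 99.9) CPM in Abx saline and 105 to 124 (median 114) CPM in H2O saline libraries. It was higher than in Abx mice (0.50 ± 0.09, adjusted p = 0.000106 in morphine, 0.26 ± 0.08, adjusted p = 0.0164 in saline) and not called against H2O mice (0.13 in morphine and 0.04 in saline). Without GF saline replicate 5, its highest library, the saline call was lost. Dnajb1, a classical partner of inducible HSP70, was higher in 3 comparisons, with 0.53 ± 0.09, adjusted p = 7.12e-05 in GF saline over H2O saline; its call against Abx morphine was lost without GF morphine replicate 3. Dnaja4 was higher in 3 as well (0.25 to 0.38), and Dnaja2 in 1 (0.16, against Abx saline, and -0.013 after the GC and length correction). Single libraries decided these calls: Dnaja4 lost the one against H2O saline without any of GF replicates 1, 3 and 4 or H2O replicates 3, 4 and 8 and the one against Abx saline without any of GF replicates 1, 3 and 4 or Abx replicates 2 and 4. Dnaja2 lost its call without any of GF saline replicates 3, 4 and 6 or Abx saline replicates 1, 2, 3, 4 and 6. Dnajb5 and Dnajb6 were called in none, with log2 fold changes of -0.01 to 0.23, though with tissue markers as covariates Dnajb5 was called higher in all 4. Dnajc7, which binds both HSP70 and HSP90, had 200, 195, 178, 206 and 189 CPM in GF morphine libraries, against 233, 222, 230, 219 and 202 CPM in Abx morphine and 204, 199, 187, 220 and 200 CPM in H2O morphine libraries. Saline Dnajc7 levels were 180 to 206 (median 193) CPM in GF saline, against 198 to 228 (median 206) CPM in Abx saline and 197 to 212 (median 205) CPM in H2O saline libraries. Dnajc7 was lower in GF morphine than in Abx morphine mice (-0.19 ± 0.05, adjusted p = 0.00797) and not called in the other 3 GF comparisons (-0.11 to -0.06); the groups overlapped.

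The mitochondrial chaperonin genes Hspe1 and Hspd1 were higher in 4 and 3 of the GF comparisons, while Hspa9, the mitochondrial HSP70, did not pass the test in any. Hspe1, the HSP10 lid of the chaperonin, had 65.1, 70.0, 76.1, 95.6 and 56.4 CPM in GF morphine libraries, against 46.1, 47.7, 48.3, 43.4 and 50.5 CPM in Abx morphine and 55.1, 50.7, 51.9, 49.9 and 55.7 CPM in H2O morphine libraries. Saline Hspe1 levels were 57.1 to 77.1 (median 70.3) CPM in GF saline, against 49.1 to 51.6 (median 50.7) CPM in Abx saline and 52.3 to 61.7 (median 54.6) CPM in H2O saline libraries. The log2 fold change was 0.47 ± 0.09, adjusted p = 0.002 against H2O morphine, 0.62 ± 0.09, adjusted p = 5.85e-06 against Abx morphine, 0.31 ± 0.08, adjusted p = 0.00343 against H2O saline and 0.45 ± 0.08, adjusted p = 0.000215 against Abx saline. GF libraries overlapped with the conventional ones only in saline, against H2O. Hspd1, the HSP60 barrel, had 214, 221, 222, 210 and 184 CPM in GF morphine libraries, against 156, 167, 158, 162 and 168 CPM in Abx morphine and 194, 172, 178, 188 and 197 CPM in H2O morphine libraries. Saline Hspd1 levels were 193 to 250 (median 211) CPM in GF saline, against 165 to 181 (median 167) CPM in Abx saline and 169 to 201 (median 180) CPM in H2O saline libraries. Hspd1 was higher in GF saline over H2O saline (0.25 ± 0.06, adjusted p = 0.00133), in GF saline over Abx saline (0.35 ± 0.06, adjusted p = 6.45e-05) and in GF morphine over Abx morphine (0.37 ± 0.06, adjusted p = 5.71e-05), with 0.18 ± 0.06, adjusted p = 0.0814 in GF morphine over H2O morphine. Hspa9 gave log2 fold changes of -0.09 to 0.04.

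Both heat-shock factors were called in some GF comparisons. Hsf1 had 49.0, 45.9, 44.4, 54.8 and 51.3 CPM in GF morphine libraries, against 30.2, 35.2, 28.2, 31.8 and 29.6 CPM in Abx morphine and 39.9, 36.1, 40.1, 38.8 and 40.8 CPM in H2O morphine libraries. Saline Hsf1 levels were 39.0 to 49.9 (median 45.2) CPM in GF saline, against 30.3 to 42.5 (median 37.7) CPM in Abx saline and 35.1 to 45.6 (median 40.4) CPM in H2O saline libraries. All 5 GF morphine libraries lay above the 10 conventional morphine libraries, and the saline groups overlapped. Hsf1 was higher by 0.66 ± 0.09, adjusted p = 1.66e-06 against Abx morphine, by 0.33 ± 0.08, adjusted p = 0.0208 against H2O morphine and by 0.27 ± 0.08, adjusted p = 0.0103 against Abx saline, and gave 0.15 ± 0.08, adjusted p = 0.146 against H2O saline. The call against H2O morphine was lost without GF morphine replicate 5 or H2O morphine replicate 3. Hsf2 had 22.5, 24.1, 28.0, 28.9 and 19.4 CPM in GF morphine libraries, against 24.2, 23.6, 20.3, 25.6 and 24.7 CPM in Abx morphine and 18.2, 19.0, 22.1, 20.2 and 21.9 CPM in H2O morphine libraries. Saline Hsf2 levels were 20.8 to 30.5 (median 26.0) CPM in GF saline, against 18.3 to 23.9 (median 22.7) CPM in Abx saline and 18.6 to 21.1 (median 19.4) CPM in H2O saline libraries, with overlap. In saline it was higher than in H2O (0.41 ± 0.09, adjusted p = 0.00123) and Abx mice (0.25 ± 0.09, adjusted p = 0.0427). After the GC and length correction the Hsf2 values were -0.014 against H2O saline and -0.16 against Abx saline, so its direction depends on that setting. The Abx saline call was also lost without any of GF saline replicates 2, 3, 4 and 6 or Abx saline replicates 1, 2 and 3.

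Of the HSP70 cofactors, Stub1 (CHIP), the ubiquitin ligase that marks chaperone clients for decay, was lower in 1 comparison. Stub1 had 41.3, 38.6, 38.7, 38 and 43.3 CPM in GF morphine libraries, against 41.1, 43.6, 46.0, 41.7 and 37.4 CPM in Abx morphine and 47.8, 46.8, 38.8, 43.9 and 44.3 CPM in H2O morphine libraries. Saline Stub1 levels were 32.0 to 44.3 (median 39.6) CPM in GF saline, against 40.5 to 47.7 (median 44.0) CPM in Abx saline and 42.8 to 50.7 (median 46.7) CPM in H2O saline libraries, with overlapping groups. The log2 fold change was -0.27 ± 0.07, adjusted p = 0.00327 in GF saline over H2O saline and 0.0056 after the GC and length correction, and the other 3 were not called (-0.17 to -0.07). Bag3, an exchange factor that steers clients to autophagy, was higher in GF saline over H2O saline (0.40 ± 0.12, adjusted p = 0.0103) and over Abx saline (0.39 ± 0.12, adjusted p = 0.0167, lost without Abx saline replicate 2). St13, or Hip, was higher in 3 comparisons (0.16 to 0.25), and its values were -0.10 against H2O saline and -0.0036 against Abx saline after the GC and length correction. Its call against H2O saline was lost without GF saline replicate 3, and that against Abx morphine without any of GF morphine replicates 1, 2, 3 and 6 or Abx morphine replicates 2, 4 and 5.

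For context, other chaperone genes and those of the endoplasmic reticulum (ER) were counted in the same fit. Of 50 tested cytosolic and mitochondrial chaperone genes outside the 38, such as the subunits of the chaperonin CCT and prefoldin, 13 were higher and 11 lower in GF saline over H2O saline and 9 and 9 in GF saline over Abx saline. In GF morphine, 5 were higher and 0 lower over H2O, and 14 and 3 over Abx. Those with the smallest p in GF saline over H2O saline were Cdc37l1 (0.64), Bag1 (-0.32), Ahsa2 (0.75), Aarsd1 (-0.32), Fkbp8 (-0.31) and Cct4 (0.31). Of 16 ER chaperone genes, 15, 16, 13 and 15 were higher and 0 lower in GF saline over H2O saline, GF saline over Abx saline, GF morphine over H2O morphine and GF morphine over Abx morphine. The lists were not compared by a test.

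**Figure D3:**
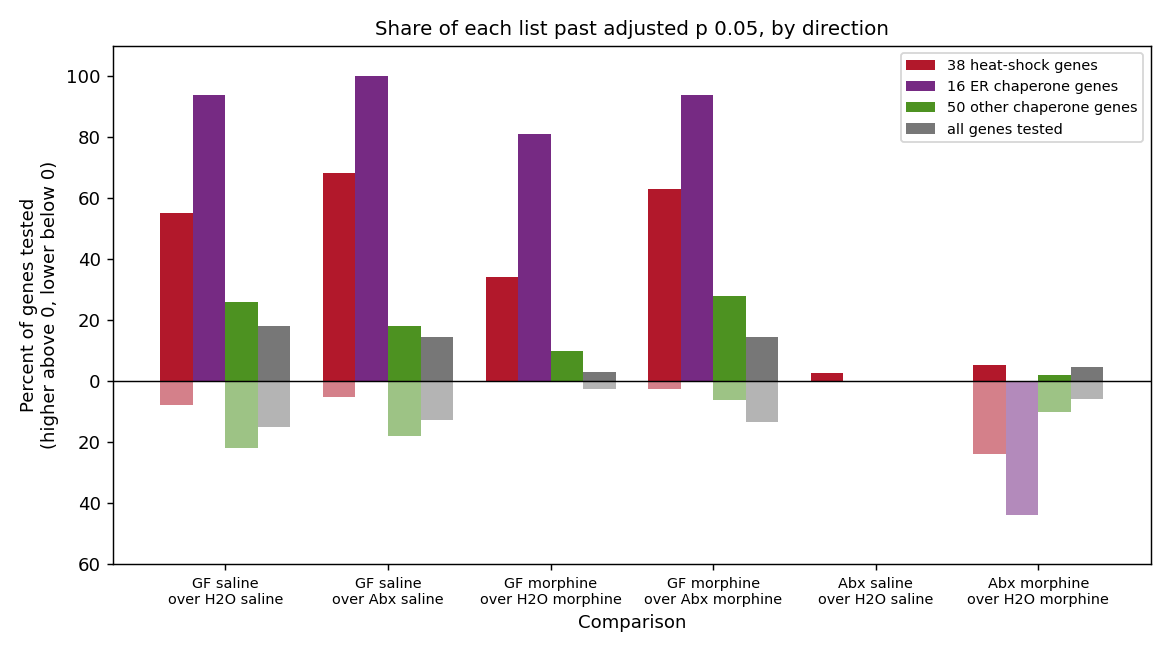
Percent of the tested genes of each list (vertical axis) that were called at adjusted p under 0.05, higher above the zero line and lower below it in paler colors, in 6 comparisons (horizontal axis). In the 4 GF comparisons, 55.3%, 68.4%, 34.2% and 63.2% of the 38 heat-shock genes were higher, against 18.0%, 14.6%, 3.20% and 14.7% of all genes.

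The second question was whether antibiotics, which deplete the microbes of mice raised conventionally, went with like differences. In Abx saline over H2O saline, 1 member was higher and 0 lower, against 0.0616% and 0.0548% of all genes, and the median log2 fold change of the members was -0.05. That member was Hspa2, at 42.1 to 54.6 CPM in Abx saline libraries, all above the 31.3 to 37.4 CPM of H2O saline libraries (0.36 ± 0.07, adjusted p = 0.0218). It was lost in libraries thinned to the smallest one, and without any of Abx saline replicates 4 and 5 or H2O saline replicates 5, 6, 8 and 9. DESeq2 and limma voom each called 1 member as well (0.712% and 1.23% of all genes).

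In morphine mice, antibiotics went with lower levels of a part of the group. In Abx morphine over H2O morphine, 2 members were higher and 9 lower, against 4.57% and 5.76% of all genes, with a median log2 fold change of -0.08. Chordc1 fell by 0.74 on the log2 scale (-0.74 ± 0.15, adjusted p = 0.000961), and its 16.5 to 23.5 CPM in Abx morphine libraries all lay below the 26.4 to 37.9 CPM of H2O morphine libraries. Hsph1 was lower (-0.54 ± 0.09, adjusted p = 0.000183), with 249 to 313 CPM in Abx morphine and 381 to 421 CPM in H2O morphine libraries. Cryab was lower (-0.62 ± 0.18, adjusted p = 0.0266), with 47.9 to 66.3 CPM in Abx morphine and 74.8 to 96.3 CPM in H2O morphine libraries. For 11 members, all Abx morphine libraries lay below all H2O morphine libraries, against 7.15% of all genes, and for 2 (Hspa2 and Hspb6) they lay above, against 6.05%.

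Smaller decreases were called for Hspa4 (-0.34 ± 0.07, adjusted p = 0.00117), Dnajb2 (-0.37 ± 0.09, adjusted p = 0.00489) and Hsf1 (-0.34 ± 0.08, adjusted p = 0.00813), while Fkbp4 (-0.29 ± 0.08, adjusted p = 0.0182), Stip1 (-0.27 ± 0.08, adjusted p = 0.0345) and Hspd1 (-0.20 ± 0.06, adjusted p = 0.0371) were lower too. Hspa2 (0.24 ± 0.08, adjusted p = 0.0423) and Hspa14 (0.22 ± 0.06, adjusted p = 0.0248) were higher. Of the 10 genes that were higher in all GF comparisons, Chordc1 was called here, and the other 9 were not, with log2 fold changes of -0.40 (Hspb1) to 0.20 (Dnajb4). The Abx morphine libraries are also the reference of GF morphine over Abx morphine, in which Chordc1 (1.54), Cryab (0.99) and Hsph1 (0.77) had larger values than in GF morphine over H2O morphine (0.79, 0.37 and 0.22).

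The 11 members with all Abx morphine libraries below were the 9 called lower, Hspb1 and Ahsa1. In saline mice, Abx libraries all lay below H2O libraries for 3 members (Hspe1, Cryab and Dnajb2, against 1.01% of all genes) and above for Hspa2 (0.664%). The count of 11 members called in morphine mice was 6 without any of Abx morphine replicates 1, 3 and 4 or H2O morphine replicate 2. Shares of all genes are not listed for these fits, so a drop in calls over all genes cannot be told apart here. The count was 18 with limma voom, which called 24.3% of all genes against 10.3% with edgeR. Hspa2 and Hspd1 also lost their calls without a filter, with a replicate block, in thinned libraries and with tissue markers as covariates. The call of Hspa14 was lost with a replicate block, that of Cryab in thinned libraries and that of Stip1 with upper-quartile factors. Cryab lost its call without any of Abx morphine replicates 1, 3 and 4 or H2O morphine replicates 2 and 4, Fkbp4 without Abx replicate 1 or 3 or H2O replicate 2, and Stip1 without any Abx replicate or any of H2O replicates 2, 3 and 6. Hspd1 lost it without any of Abx replicates 1, 3 and 4 or H2O replicates 2, 5 and 6, Hspa14 without any of Abx replicates 4 and 5 or H2O replicates 3 and 4, and Hspa2 without any of Abx replicates 1 to 4 or H2O replicates 2, 3 and 6. Markers of microglia summed to 309 to 368 CPM in Abx morphine and 407 to 453 CPM in H2O morphine libraries, and 6 of 7 were lower. Markers of oligodendrocytes summed to 5010 to 5740 CPM in Abx morphine and 4960 to 5828 CPM in H2O morphine libraries, with 0 of 7 called by edgeR. The part of either cell type in these differences was not tested. Of 16 ER chaperone genes, 0 were higher and 7 lower in this comparison, and of the 50 others 1 was higher and 5 lower.

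**Figure D4:**
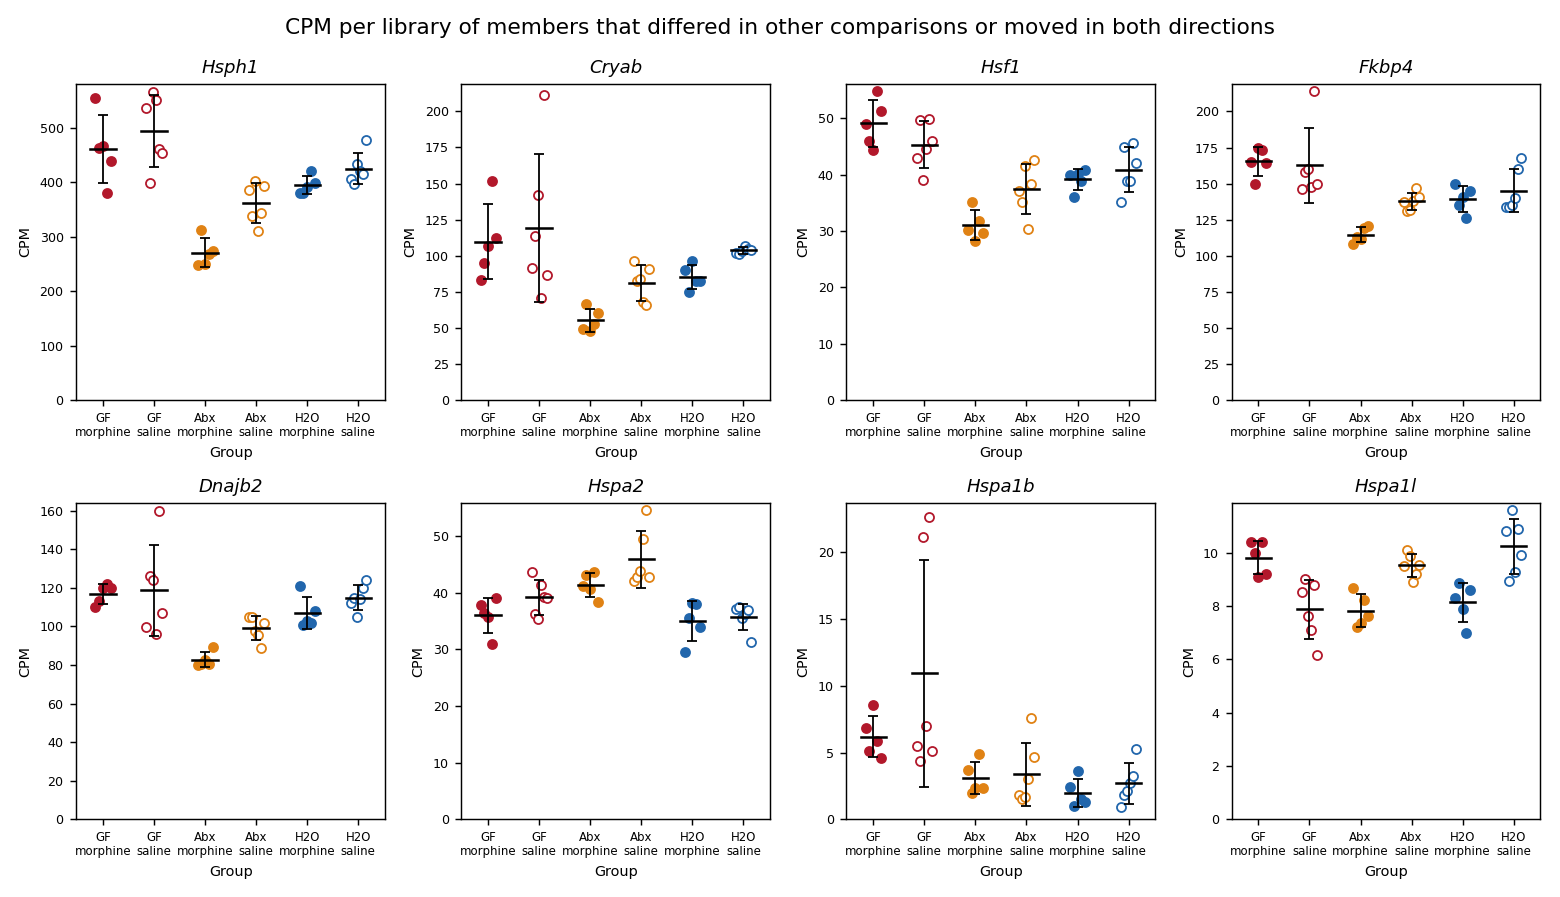
CPM per library (vertical axes, starting at 0) of 8 members, Hspa1b and others that differed in comparisons other than the GF ones or in both directions. Each point is 1 library (filled for morphine, open for saline), and the line with bars is the mean ± SD of its group on the horizontal axis. Hsph1, Cryab, Hsf1, Fkbp4 and Dnajb2 have their lowest group mean in Abx morphine mice, Hspa1b is highest in 2 GF saline libraries, and Hspa1l stands at 9.10 to 10.4 CPM in GF morphine and 6.17 to 9.03 CPM in GF saline libraries.

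The last question was how morphine went with expression within each microbial state. In Abx mice, 5 members were lower and 0 higher in morphine than in saline (3.20% and 2.22% of all genes). Hsph1 had 249, 313, 250, 269 and 274 CPM in Abx morphine libraries, against 310 to 402 (median 365) CPM in Abx saline libraries (-0.42 ± 0.09, adjusted p = 0.0048). Also lower were Chordc1 (-0.59 ± 0.14, adjusted p = 0.0133), Fkbp4 (-0.27 ± 0.08, adjusted p = 0.0385), Hsf1 (-0.27 ± 0.08, adjusted p = 0.043) and Ahsa1 (-0.19 ± 0.06, adjusted p = 0.0489). Hsph1 held when any library was left out, and Chordc1 was lost without Abx morphine replicate 1 or 3. Fkbp4, Hsf1 and Ahsa1 lost their calls in 8, 9 and 8 of 11 fits with 1 Abx library left out, among them those without Abx morphine replicate 1, 3 or 4 or Abx saline replicate 1, 5 or 6. Fkbp4, Hsf1 and Ahsa1 were also not called with upper-quartile factors, without a filter, in thinned libraries or with the GC and length correction. DESeq2 called 9 members lower and limma voom 11, against 4.60% and 8.61% of all genes lower. Of 7 microglia markers, 2 were lower (median -0.33), with sums of 309 to 368 CPM in Abx morphine and 370 to 444 CPM in Abx saline libraries, and their part in these differences was not tested. Over all single libraries left out, the count of members ranged from 1 (without Abx morphine replicate 1 or 3) to 10 (without GF saline replicate 5). The shares of all genes in these fits are not listed.

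Neither GF nor H2O mice had a member called for morphine. In GF morphine over GF saline, edgeR called 0 of 38 members (0.00685% of all genes higher and 0.00% lower). An unadjusted p under 0.05 was reached by 2 members and by 961 of all 14607 genes, and DESeq2 and limma voom called 0 members each. In H2O morphine over H2O saline, edgeR called 0 members and 0.00% of all genes. There, 4 members and 2222 of all 14607 genes had an unadjusted p under 0.05. DESeq2 called 1 member (Hspa1l, -0.34) and 2.69% of all genes, and limma voom 2 members (Hspa1l, -0.31, and Hspa4l, 0.23) and 9.07% of all genes. Whether the response of Abx mice differs from that of the other states was not tested.

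The morphine response of GF mice minus that of H2O mice was tested directly. edgeR called 0 members and 0.00% of all genes, while 2 members and 2325 of all 14607 genes had an unadjusted p under 0.05. DESeq2 gave an adjusted p to 32 of the 38 members and to 9792 genes, and called 0 of these members and 2.39% of these genes. With limma voom 1 member was called (0.349% of all genes). The gene was Hspa1l. Its levels in GF mice were 10.4, 9.98, 9.10, 10.4 and 9.21 CPM in morphine, against 6.17 to 9.03 (median 8.08) CPM in saline. In H2O mice they were 8.32, 8.88, 7.90, 7.01 and 8.61 CPM in morphine, against 8.94 to 11.6 (median 10.4) CPM in saline. The log2 fold change of morphine over saline was 0.32 ± 0.10 in GF and -0.33 ± 0.09 in H2O mice, and their difference was 0.65 ± 0.13, adjusted p = 0.0671. The difference passed the threshold with limma voom (0.66, adjusted p = 0.0351), with tissue markers as covariates (0.66, adjusted p = 0.0487) and without any of GF morphine replicates 2 and 3 or GF saline replicates 1, 2 and 5. All genes showed a trend with transcript length and GC content in this difference (Spearman's rho -0.497 and 0.336 across 14475 genes), and its part in the Hspa1l value was not tested beyond the GC and length correction, which called 0 members.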

How the data were processed

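Polyadenylated RNA of nucleus accumbens was sequenced in 33 libraries. The authors deposited whole-number read counts per gene symbol. STAR 2.4.0, FastQC and edgeR are named in the submitters' processing notes. Which program counted reads, the build, the annotation and whether strand was used: not given in the sources used here. In 27 rows the gene name had become a date, as spreadsheets do; none is a member, and they stayed in the fit. Reads given to no gene (19.3% to 35.4%) were left out of library sizes.

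edgeR 4.0.16 (R 4.3.3, limma 3.58.1) tested the counts of the 14607 genes that filterByExpr (minimum count 10) left. One fit of 6 group means with TMM factors covered all libraries (27 residual degrees of freedom, common biological coefficient of variation 0.128). Two-sided quasi-likelihood tests gave log2 fold changes ± SE, with Benjamini-Hochberg adjustment over all genes and a threshold of 0.05. P-values measure the spread between libraries, each taken as 1 mouse; the labels give no cage. Libraries of a group correlated with r from 0.957 to 0.992 across genes, and none was close enough to another to be a repeat (chi-squared per degree of freedom 3.07 to 36.7). CPM are scaled by TMM factors. Levels per kilobase use the longest GENCODE M21 transcript.

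Members and lists were chosen with earlier results of these data known. Values of every group are given for the 8 members with the largest mean change among those called in all 4 GF comparisons, for members called in an Abx or morphine comparison or lower in a GF one, and for Hsf1, Hsf2, Hspa8, Hsp90ab1, Hspa1a and Hspa1b. The others are given by counts and ranges. Alternatives were limma voom with sample weights, DESeq2 1.42.0, other scaling factors and filters, a fit of the compared groups alone, a replicate block, thinned counts, a GC and length correction, tissue markers as covariates and leaving out each library. For counts of calls in 1 comparison, shares of all genes under an alternative are of the genes to which it gave an adjusted p. The code was tested on simulated data.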

Additional observations from a re-analysis of the deposited data

Results flagged for a closer look

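In 15 of 228 sets of values (38 genes in 6 groups), 1 library stood far from the rest of its group by Dixon's test at the 95% level, and chance flags about 1 set in 20. No explanation was weighed. Among HSP70 genes, Hspa1a stood at 7.78 CPM in Abx saline replicate 5 (others 3.44 to 5.03). Hspa2 stood at 31.3 in H2O saline replicate 9 (35.6 to 37.4) and Hspa8 at 1160 in Abx morphine replicate 1 (1020 to 1060 CPM). Hspa14 stood at 36.6 in GF saline replicate 2 (43.9 to 48.0) and at 38.7 CPM in H2O saline replicate 8 (40.6 to 41.5). The inducible HSP90 gene Hsp90aa1 stood at 711 CPM in Abx morphine replicate 1 (577 to 610), and its cochaperone gene Fkbp4 at 214 CPM in GF saline replicate 5 (146 to 160). Hspd1 stood at 181 CPM in Abx saline replicate 4 (165 to 170). Of the small heat-shock protein genes, Hspb1 stood at 5.13 CPM in H2O morphine replicate 4 (5.79 to 6.04) and Hspb8 at 9.76 CPM in Abx saline replicate 5 (15.1 to 17.8). Of the J protein genes, Dnaja1 stood at 179 CPM in H2O saline replicate 9 (144 to 157) and Dnaja4 at 45.3 CPM in Abx morphine replicate 3 (52.2 to 54.4). Dnajb2 stood at 89.4 CPM in Abx morphine replicate 5 (80.2 to 82.7) and Dnajb6 at 88.9 CPM in H2O morphine replicate 3 (97.7 to 101). St13 stood at 121 CPM in H2O morphine replicate 4 (133 to 137). No library held more than 2 of these values.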

How the results depend on the processing

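For the counts of members called, the direction of the GF results held in every alternative run: more members were higher than lower. The count for GF morphine over H2O morphine, 13 (5.86% of all genes), was 8 (2.4%) in a fit of the compared groups alone. That for GF saline over Abx saline, 28 (27.4% of all genes), was 18 in such a fit (16.4%) and 18 with tissue markers as covariates (18.0%). For Abx saline over H2O saline, 1, it was 0 with a replicate block and 0 in thinned counts. The 11 of Abx morphine over H2O morphine became 18 with limma voom, which called 24.3% of all genes, against 10.3% with edgeR. For H2O morphine over H2O saline, 0, it was 1 with DESeq2 (2.69% of all genes), 2 with limma voom (9.07%) and 2 in a fit of the compared groups (6.97%). The 5 of Abx morphine over Abx saline (5.42% of all genes) became 9 with DESeq2 (7.84%), 11 with limma voom (16.7%), 3 with upper-quartile factors (4.92%), 2 without a filter (2.74%), 8 in a fit of the compared groups (7.99%), 3 with the replicate block (5.11%), 2 in thinned counts (2.70%), 3 with the GC and length correction (5.42%) and 11 with tissue markers as covariates (7.94%). The difference in response, 0, was 1 with limma voom and 1 with tissue markers. The 10 members higher in all 4 GF comparisons, recounted after that result was seen, became 5 in a fit of the compared groups and 6 with tissue markers as covariates. The causes of these changes were not tested. With 1 library left out, counts ranged from 17 to 26 (GF saline over H2O saline), 9 to 16 (GF morphine over H2O morphine), 22 to 30 (GF saline over Abx saline), 22 to 26 (GF morphine over Abx morphine), 0 to 1 (Abx saline over H2O saline), 6 to 12 (Abx morphine over H2O morphine), 0 to 1 (H2O morphine over H2O saline), 1 to 10 (Abx morphine over Abx saline), 0 to 0 (GF morphine over GF saline), 0 to 1 (difference in response) and 6 to 11 (higher in all 4). Counts of members without overlap ranged from 6 to 9 in saline and 12 to 17 in morphine, and leaving out a library could not lower them. Shares of all genes are not listed for these ranges. Of 2358 values for the 107 calls of single members, 2052 stayed past the threshold in the same direction, 300 kept the direction but not the call, and 6 reversed. All 6 came with the GC and length correction: Hsf2 -0.014, St13 -0.10 and Stub1 0.0056 in GF saline over H2O saline, and Dnaja2 -0.013, Hsf2 -0.16 and St13 -0.0036 in GF saline over Abx saline. Replicate numbers did not pair the libraries: over 66 same-numbered pairs r averaged 0.00044 (-0.459 to 0.442), and 2 of 31 libraries correlated best with their own number. Under the replicate block, the side with more members stayed the same in the comparisons with calls other than Abx saline over H2O saline. In Abx morphine over H2O morphine, 0 members were higher and 8 lower with it, against 3.85% and 5.07% of all genes. Without it, 2 were higher and 9 lower. In thinned counts, 21 members were called in GF saline over H2O saline (29.0% of all genes) and 11 in GF morphine over H2O morphine (3.88%). Over Abx mice, thinned counts gave 23 in GF saline (23.6%) and 22 in GF morphine (23.3%). Hspa1a and Hspa1b rest on few reads.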
